A study of Rattus norvegicus with 4 samples.

Results

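The genes that carry a cell through G2 and mitosis were compared between RTEC11 cells kept at 33 °C and at 39 °C. The list held 54 genes of mitotic entry, the spindle, the kinetochore, the chromosomes, anaphase and cytokinesis. Its members were the probe sets whose annotation named exactly 1 gene of the list, which gave 41 of the 15866 probe sets that are not controls, for 32 of the 54 genes. RTEC11 is a rat tracheal epithelial line, conditionally immortalized, from transgenic rats that carry a temperature-sensitive large T antigen of simian virus 40, so every sample carried the transgene. Such an antigen works at 33 °C, the permissive temperature, and loses its function at 39 °C, the nonpermissive one. Culture at either temperature lasted 3 days, with 2 arrays for each, from this 1 line. Temperature and antigen function changed together and cannot be told apart. No label states that replicates came from separate cultures, and the p-values then cover no more than the differences among these 4 arrays, possibly technical ones.

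Entry into mitosis is driven by cyclin-dependent kinase 1 with its A and B cyclins, and the exit from it by the anaphase-promoting complex, a ubiquitin ligase that has those cyclins and securin destroyed. Between these steps, kinetochores attach chromosomes to the spindle, and a checkpoint holds anaphase back until all are attached. Most of these genes are transcribed late in the cell cycle. Large T antigen inactivates p53 and the retinoblastoma proteins. Active p53 induces the kinase inhibitor p21, and complexes of the retinoblastoma family with MuvB then hold late cell cycle genes down. These complexes act at an element named the cell cycle genes homology region (CHR), often found near CCAAT boxes that bind the factor NF-Y.

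Of the 41 member probe sets, 40 were bright enough to be tested and covered all 32 genes. At 39 °C, 14 probe sets of 11 genes were lower and 9 probe sets of 8 genes were higher. The remaining 17 were not called (limma, adjusted p under 0.05), and 13 genes had no call. Called probe sets made up 57.5% of the members tested, against 47.2% of all 9520 probe sets tested. Higher calls made up 22.5% of the members and also 22.5% of all, and lower calls 35.0% of the members against 24.7% of all. The median log2 change was -0.17 over the members and -0.03 over all probe sets tested. The changes ran from -1.26 for Plk1 to 1.10 for Aurkb, and 3 of the 40 were called with a change of at least 2-fold, against 10.9% of all. The 2 groups of arrays did not overlap in 31 of the 40 (77.5%), against 74.2% of all. Probe sets of 1 gene share a transcript and are not replicates of each other. With 1 probe set per gene, 9 of 32 members were higher and 10 lower. Higher calls then made up 28.1% of the members against 23.1% of 7016 genes, and lower calls 31.2% against 26.1%. Calls of either direction made up 59.4% against 49.1%. All values below are log2(intensity + 16) after quantile normalization, or the deposited intensities where they are so named. A change is 39 °C minus 33 °C. In a culture, fewer cells in mitosis and less RNA per cell cannot be told apart.

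Other scalings of the arrays moved these counts. On the deposited scale 9 were higher and 14 lower, against 48.0% of all probe sets called and 22.2% lower. With each array centred on its median 9 were higher and 19 lower, against 50.8% called and 31.7% lower. With each array set to its poly-A spike-in controls 2 were higher and 28 lower, against 57.3% called and 45.9% lower. That scaling presumes that the control transcripts were added equally to all samples and read above background, which was not tested. The same limit holds for every spike-in value below. Higher calls as a share of all calls came to 39.1%, 39.1%, 32.1% and 6.67% for the members, and 47.7%, 53.8%, 37.7% and 19.8% for all probe sets, after quantile normalization and under these 3 scalings. The median of all probe sets tested was -0.03, 0.03, -0.12 and -0.35 in the same order. Of the 14 lower probe sets, 13 were called lower under all 4 scalings, the exception being Bub1b. Of the 9 higher ones, Aurkb and a probe set of Hmmr were called higher under all 4. The other 7 lost their call with spike-in scaling, at changes of 0.08 to 0.23.

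Bases directly before the transcript start are shown for 3 genes that were lower at 39 °C (Plk1, Cdc20, Ccnb1), 1 that was higher (Melk) and 1 that was not called (Top2a). They were chosen to set side by side genes that changed differently. Sequences are from RefSeq, assembly GRCr8, 5′ to 3′ on the gene's strand, with capitals marking CCAAT, its reverse complement ATTGG, and the CHR as TTTGAA, its reverse complement TTCAAA, or TTCGAA.
Plk1, chr1:186147513-186147657, plus strand: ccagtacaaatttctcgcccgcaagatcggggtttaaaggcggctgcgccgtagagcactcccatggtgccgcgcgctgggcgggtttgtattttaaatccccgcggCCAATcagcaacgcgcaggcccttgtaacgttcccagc
Cdc20, chr5:137255800-137255944, minus strand: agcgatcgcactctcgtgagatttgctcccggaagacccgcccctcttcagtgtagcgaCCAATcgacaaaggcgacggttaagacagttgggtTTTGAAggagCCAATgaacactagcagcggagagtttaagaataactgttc
Ccnb1, chr2:33655226-33655370, minus strand: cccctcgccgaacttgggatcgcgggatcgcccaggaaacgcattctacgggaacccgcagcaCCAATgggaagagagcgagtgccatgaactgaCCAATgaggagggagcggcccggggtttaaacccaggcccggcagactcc
Melk, chr5:63336006-63336150, plus strand: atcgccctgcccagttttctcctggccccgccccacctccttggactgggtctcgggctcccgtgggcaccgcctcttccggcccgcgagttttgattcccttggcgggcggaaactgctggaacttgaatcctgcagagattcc
Top2a, chr10:84473094-84473238, minus strand: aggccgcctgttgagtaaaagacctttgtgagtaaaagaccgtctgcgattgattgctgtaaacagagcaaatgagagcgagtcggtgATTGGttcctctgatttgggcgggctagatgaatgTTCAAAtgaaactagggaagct

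Where the bases before the start overlap a RefSeq transcript span of the gene, 30 bases around a CHR are shown. They come from 3 genes that were higher at 39 °C (Hmmr, Spc25, Espl1) and from 2 that were not called (Cdk1, Mki67), with the same capitals. In Mki67 the CHR and the reversed CCAAT box share a base.
Hmmr, chr10:25665244-25665273, minus strand: cgttggggtaaaTTTGAAttcaggcgagtt
Spc25, chr3:74396758-74396787, minus strand: ggcgctccggagTTTGAAattgaaagtcgg
Espl1, chr7:135302621-135302650, plus strand: ccactagagataTTTGAAaggaggtgctgg
Cdk1, chr20:19265209-19265238, plus strand: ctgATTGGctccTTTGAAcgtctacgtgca
Mki67, chr1:199952675-199952704, minus strand: ccgccgttttcgTTTGAATTGGgcgggcac

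A RefSeq promoter was matched for 28 of the 32 genes, all but Aurkb, Foxm1, Racgap1 and Ube2c. Both strands of the 250 bases before the start were searched. A CCAAT box was found in 23 of the 28 (82.1%), against 34.3% of all 27457 promoters of that length. A CHR was found in 16 (57.1%) against 17.3%, and both in 15 (53.6%) against 6.22%. More than 1 CCAAT box was present in 15 members (53.6%) against 9.77% of all promoters. Matches were found before genes of each kind of call. A CHR lay before 6 of 10 genes that were lower at 39 °C, 3 of 7 that were higher and 7 of 11 that were not called. CCAAT boxes lay before 7, 5 and 11 of these, in the same order. Plk1, with the largest fall, had 1 CCAAT box and no match to these CHR letters in the window. Aurka and Kif2c, which were lower, and Mad2l1 and Melk, which were higher, had no match to either motif as spelled here. Other spellings of the CHR were not searched, so the CHR counts may miss some. A match is a run of letters, not a measured binding site.

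**Figure D1:**
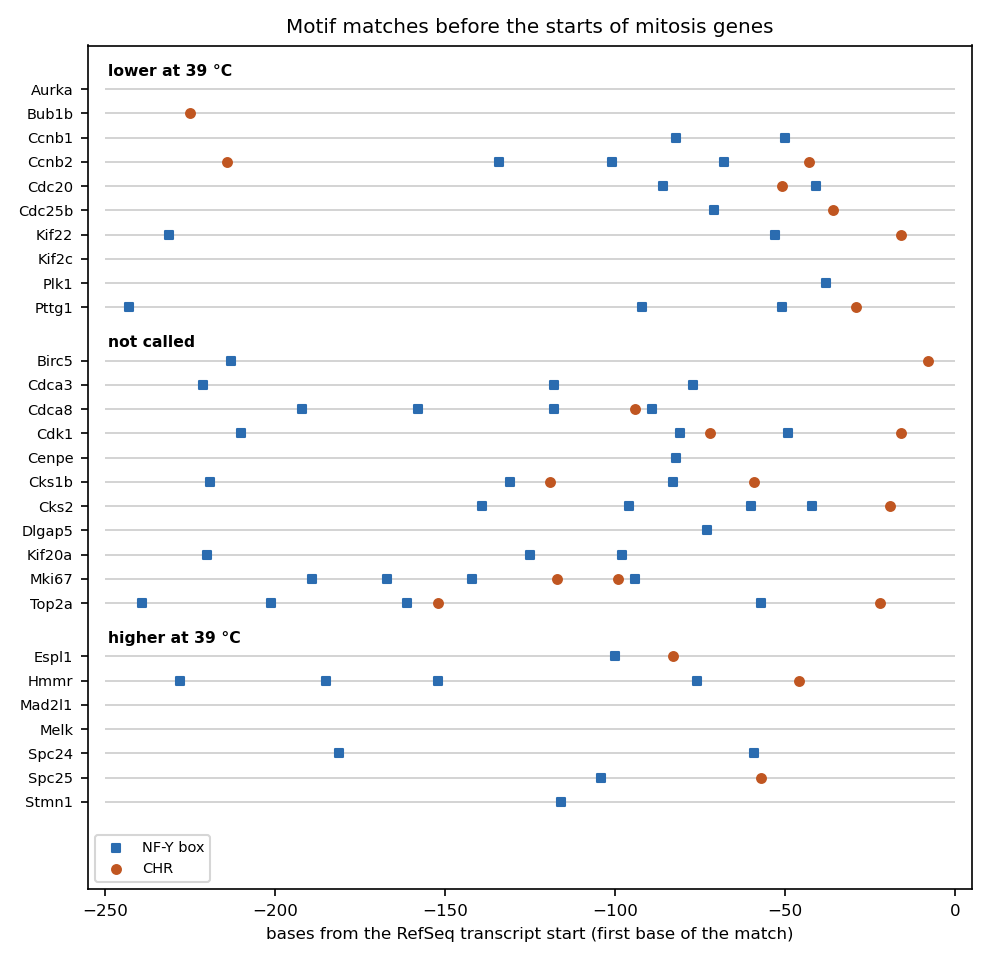
Matches to the CCAAT box (the NF-Y box, blue squares) and the CHR (orange circles) in the 250 bases before the RefSeq transcript start of 28 member genes, by distance from the start in bases, on either strand. Genes are grouped by their call at 39 °C against 33 °C, and matches are found in all 3 groups.

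Of 12 probe sets of mitotic entry, 5 fell, 1 rose and 6 were not called, with a median change of -0.22. Lower calls made up 41.7% of the class against 24.7% of all probe sets, and calls of either direction 50.0% against 47.2%. With spike-in scaling 10 of the 12 were lower (83.3%), against 45.9% of all. Plk1, the Polo-like kinase that helps activate cyclin-dependent kinase 1 and later acts at centrosomes and kinetochores, fell most. Its deposited intensities were 2122.5 and 2059.6 on the 33 °C arrays and 863 and 865.9 on the 39 °C arrays. The groups lay far apart, with almost no spread within either. Plk1 was 2.39-fold lower, a change of -1.26 ± 0.10 (SE, n = 2 each, adjusted p 2.67e-06, limma).

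Ccnb1 encodes cyclin B1, the partner of the kinase at mitotic entry, and had 2 probe sets. The first read 6715.9 and 6312.4 at 33 °C and 3225.8 and 3049.4 at 39 °C. The second read 3979 and 4089.6 at 33 °C and 2604.8 and 2523.7 at 39 °C. Both were lower on both 39 °C arrays, but by unequal amounts, with changes of -0.94 ± 0.09 and -0.54 ± 0.09 (SE). The adjusted p was 6.42e-06 for the first and 0.000392 for the second (limma). Ccnb2, the gene of the other mitotic B cyclin, also fell. It read 4242.3 and 3855.4 at 33 °C and 2541 and 2464.6 at 39 °C, a change of -0.59 ± 0.09 (SE). Cdc25b, a phosphatase that removes inhibitory phosphates from the kinase, read 793.2 and 781.7 at 33 °C and 611.5 and 581.2 at 39 °C. This was a change of -0.45 ± 0.12 (SE), and its call was lost without nonpermissive replicate 2 (-0.40).

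The gene of the kinase itself was not called. Cdk1 read 3097.2 and 2591.9 at 33 °C and 2965.2 and 2382.8 at 39 °C, so the groups overlapped, and its change was -0.03 ± 0.12 (SE, adjusted p 0.848, limma). With spike-in scaling Cdk1 was called lower (-0.47). Its small binding partners Cks1b and Cks2 were not called either. Cks1b had changes of -0.10 and -0.25 by its 2 probe sets, and Cks2 of -0.20. With spike-in scaling both Cks1b probe sets were called lower (-0.56 and -0.53), the first also with median centring (-0.33) and the second without permissive replicate 1 (-0.46). Cks2 passed as lower with the deposited, median centred and spike-in scalings (-0.30 to -0.68), and without nonpermissive replicate 1 (-0.36). Cdca3, which helps trigger entry by promoting loss of the inhibitory kinase Wee1, was at -0.05, or -0.50 and called with spike-in scaling, and the transcription factor Foxm1, which drives many genes of this list, at 0.08. Melk, a kinase abundant in dividing cells, was the member of this class that rose. It read 1372.9 and 1311.7 at 33 °C and 1913.7 and 1994.2 at 39 °C, a change of 0.55 ± 0.10 (SE, adjusted p 0.000753, limma).

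**Figure D2:**
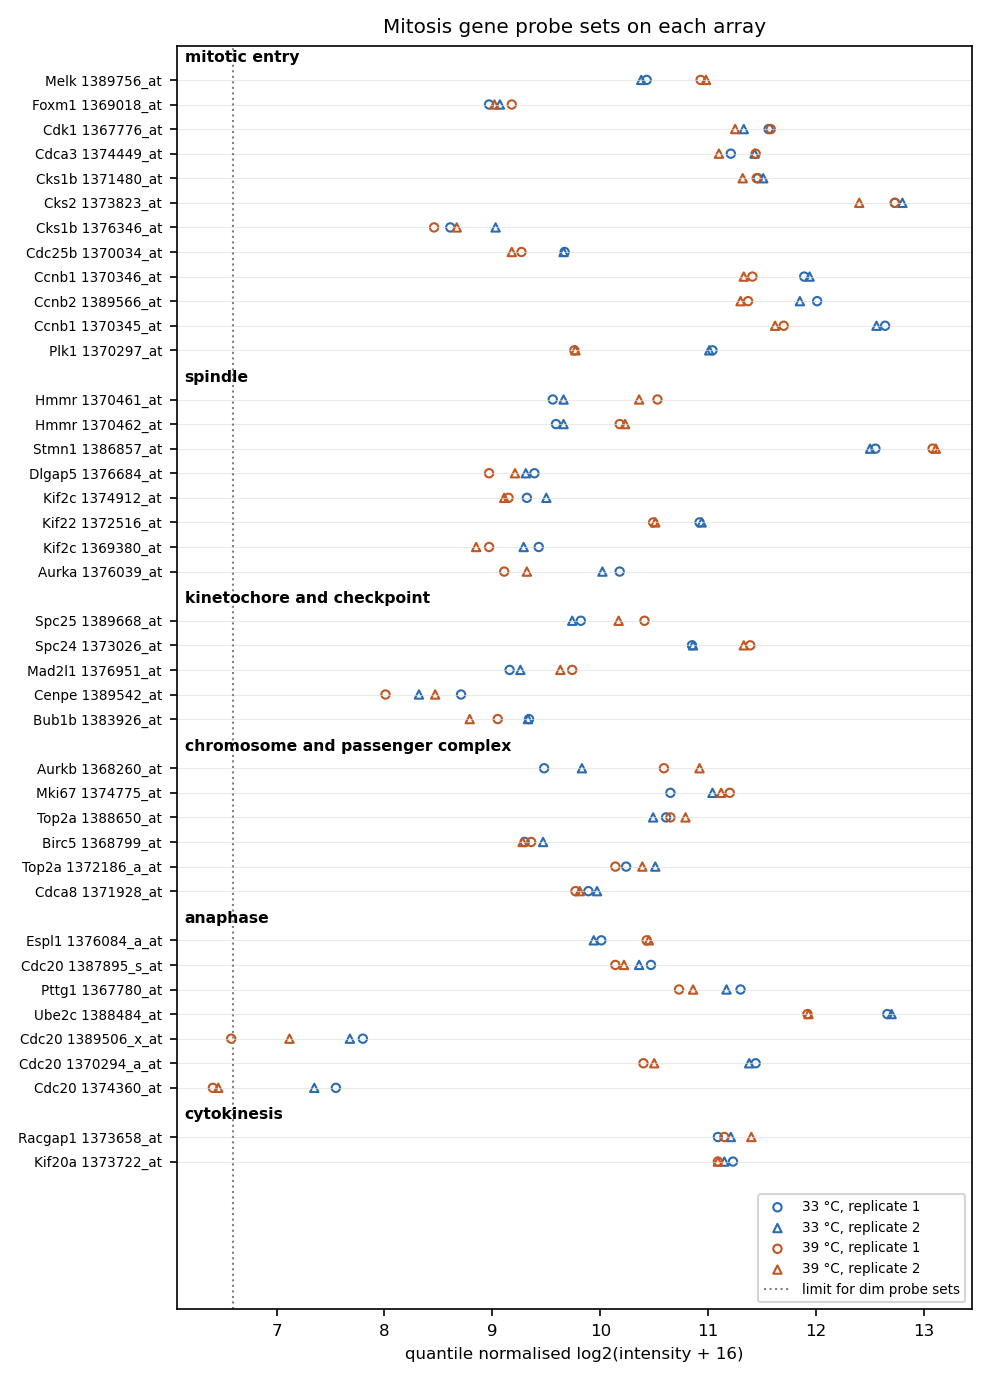
Quantile normalised log2(intensity + 16) of the 40 tested member probe sets on each of the 4 arrays, by class, with 33 °C in blue and 39 °C in orange. Plk1, Ccnb1, Ube2c and the first Cdc20 probe set lie lower on both 39 °C arrays, Aurkb and Hmmr lie higher on both, and the groups of Cdk1 overlap.

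Spindle genes were divided. Of 8 probe sets, 3 rose, 3 fell and 2 were not called (median -0.27). Each direction made up 37.5% of the class, against 22.5% higher and 24.7% lower of all probe sets. With spike-in scaling 1 rose and 5 fell, where 11.4% of all were higher and 45.9% lower. Aurka, the kinase that matures centrosomes and builds the spindle poles, fell. It read 1145.1 and 1013.7 at 33 °C and 551.4 and 640 at 39 °C. This was a change of -0.88 ± 0.12 (SE, n = 2 each), or 1.85-fold lower, with an adjusted p of 0.00015 (limma). Kif22, a motor that pushes chromosome arms away from the poles, read 1938.4 and 1952.5 at 33 °C and 1420.5 and 1444.8 at 39 °C, a change of -0.43 ± 0.10 (SE). Kif2c, a kinesin that dismantles microtubule ends at centromeres, had a called probe set at -0.45 and one that was not called at -0.28, which was called with median centring (-0.36) and spike-in scaling (-0.60). The first read 662 and 596.6 at 33 °C and 497.3 and 460.3 at 39 °C, and the second 609.6 and 695.1 against 565.2 and 552.2. All 4 readings at 39 °C were below those at 33 °C of the same probe set. The Kif2c call was lost without permissive replicate 1 (-0.38) and without nonpermissive replicate 2 (-0.39). Dlgap5, a spindle microtubule bundler, was at -0.26 and not called, or -0.57 and called with spike-in scaling.

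Hmmr, a spindle pole protein that works with Aurka through its activator, rose by both of its probe sets. The first read 727.4 and 780.4 at 33 °C and 1454.9 and 1292.6 at 39 °C, and the second 742.7 and 780.1 against 1156.6 and 1188.8. Their changes were 0.83 ± 0.11 and 0.58 ± 0.11 (SE), with adjusted p of 0.000121 and 0.00103 (limma). The second lost its call with spike-in scaling (0.23). Stmn1, or stathmin, which destabilizes microtubules until it is phosphorylated at mitosis, also rose. It read 6125.2 and 5994.2 at 33 °C and 8323.9 and 8650.4 at 39 °C. The change was 0.57 ± 0.08 (SE), and 0.10 without a call with spike-in scaling.

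At the kinetochore, 3 of 5 probe sets rose and 1 fell (median 0.48), where 22.5% of all probe sets were higher and 24.7% lower. With spike-in scaling 0 of the 5 rose and 2 fell, where 11.4% of all were higher and 45.9% lower. Spc24 and Spc25, which form the inner end of the Ndc80 complex that holds microtubules, both rose. Spc24 read 1842.9 and 1843.5 at 33 °C and 2570.7 and 2512.5 at 39 °C, and Spc25 read 879 and 824.8 against 1339.3 and 1142.4. Their changes were 0.50 ± 0.09 and 0.51 ± 0.12 (SE), with adjusted p of 0.000947 and 0.00409 (limma). The remaining subunits, Ndc80 and Nuf2, had no probe set here. Mad2l1, the checkpoint protein that binds and restrains Cdc20, read 541.7 and 580 at 33 °C and 848.8 and 789.1 at 39 °C, a change of 0.48 ± 0.12 (SE). Without nonpermissive replicate 1 the calls of Spc25 (0.39) and Mad2l1 (0.42) were lost, and with spike-in scaling those of all 3 (0.08 to 0.15).

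Bub1b, which encodes BubR1 of the same checkpoint complex as Mad2l1, moved the other way. It read 620.1 and 611.5 at 33 °C and 526.7 and 444.7 at 39 °C, a change of -0.41 ± 0.13 (SE, adjusted p 0.0249, limma). The Bub1b call was lost on the deposited scale (-0.34), without a limit for dim probe sets and without an intensity trend, without permissive replicate 1 (-0.41) and without nonpermissive replicate 2 (-0.28). The motor Cenpe, which carries chromosomes to the spindle equator, was at -0.27 and its groups overlapped, and it was called with spike-in scaling (-0.54).

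Among genes of the mitotic chromosome and the passenger complex, 1 of 6 probe sets was called (16.7%), against 47.2% of all probe sets. The called one was Aurkb, the kinase of the chromosomal passenger complex, which corrects faulty attachments and drives cytokinesis. It read 687.7 and 883.9 at 33 °C and 1518.3 and 1922.1 at 39 °C, so both 39 °C arrays were above both 33 °C arrays in spite of the spread. Aurkb was 2.14-fold higher, a change of 1.10 ± 0.14 (SE, n = 2 each, adjusted p 9.58e-05, limma), which was 0.74 and still called with spike-in scaling. Its partners in the complex, Birc5 (survivin) and Cdca8 (borealin), were at -0.07 ± 0.12 and -0.14 ± 0.11 (SE), not called. With spike-in scaling both were called lower (-0.39 and -0.48). Aurora kinases A and B thus moved apart by 1.98 log2 units, or 1.96 on the deposited scale.

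The proliferation marker Mki67, which coats mitotic chromosomes, was not called. It read 1602.6 and 2109.7 at 33 °C and 2274.6 and 2191.5 at 39 °C, a change of 0.32 ± 0.13 (SE). Its adjusted p was 0.0521 over all probe sets and 0.0493 with 1 probe set per gene (limma). It was also called with 64 added to each intensity, with the replicate number as a block, and without permissive replicate 2 (0.52), while it turned to -0.10 with spike-in scaling. Top2a, the topoisomerase that untangles sister chromatids, had 2 probe sets of opposite sign. One read 1564.1 and 1411.9 at 33 °C and 1577.5 and 1753.7 at 39 °C (0.16 ± 0.10, SE), and the other 1190.6 and 1435.2 against 1118.2 and 1323.5 (-0.11 ± 0.13, SE). Neither was called, but with spike-in scaling the second was called lower (-0.48) and the first turned to -0.22.

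Genes that bring about anaphase showed large falls beside 1 rise. Of 7 tested probe sets, 4 of them of Cdc20, 5 fell, 1 rose and 1 was not called (median -0.75). Lower calls made up 71.4% of the class against 24.7% of all probe sets. With spike-in scaling 6 fell and 0 rose, where 45.9% of all were lower. With 1 probe set per gene, 3 of 4 genes fell and 1 rose (median -0.6). Cdc20, which activates the anaphase-promoting complex and is the target of the checkpoint, had 5 probe sets. The first read 2858 and 2693.8 at 33 °C and 1335.2 and 1438 at 39 °C. Its change was -0.97 ± 0.10 (SE, n = 2 each), or 1.95-fold lower, with an adjusted p of 1.33e-05 (limma). The groups did not overlap. The second read 161 and 140.4 at 33 °C and 77.6 and 71.1 at 39 °C, the latter under the limit for dim probe sets, a change of -1.02 ± 0.23 (SE). The third, of a kind that can also bind related transcripts, read 195.9 and 180.1 against 88.8 and 127.1, a change of -0.90 ± 0.23 (SE) that lost its call without nonpermissive replicate 1 (-0.63). The fourth, which is marked as shared between transcripts, read 1405.6 and 1302.4 against 1122.6 and 1180.5, a smaller difference of -0.23 ± 0.10 (SE) that was called with median centring and spike-in scaling and on neither other scale. The fifth was under the limit at both temperatures, with 51.2 to 71.4, and was not tested. The 4 tested Cdc20 probe sets thus had 1 sign, with sizes that differed by up to 0.78 log2 units.

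Ube2c, the ubiquitin-conjugating enzyme of the anaphase-promoting complex, read 6787.3 and 6803.9 at 33 °C and 3669.5 and 3719.9 at 39 °C. The groups were tight and well apart, a change of -0.75 ± 0.08 (SE, adjusted p 2.16e-05, limma). Pttg1, or securin, which blocks the protease separase until anaphase, was lower. It read 2565.1 and 2338.2 at 33 °C and 1670.6 and 1837.9 at 39 °C, a change of -0.44 ± 0.10 (SE, adjusted p 0.00374, limma). Espl1, which encodes separase itself, went the other way. It read 1004.6 and 950.9 at 33 °C and 1357.8 and 1383.5 at 39 °C, a change of 0.46 ± 0.10 (SE, adjusted p 0.00336, limma), and 0.10 without a call with spike-in scaling.

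The cytokinesis genes measured here were Kif20a, a motor that brings Plk1 and the passenger complex to the central spindle, and Racgap1, a part of centralspindlin. Kif20a was at -0.10 ± 0.09 and Racgap1 at 0.13 ± 0.11 (SE), with no call for either. Kif20a was called lower with median centring (-0.30), where Racgap1 turned to -0.07, and both were called lower with spike-in scaling (-0.54 and -0.31). The list genes with no probe set of their own here were Ccna2, Ccnf, Cdc25c and Pbk of mitotic entry. Of the spindle they were Kif11, Kif18a, Kif4a, Nek2, Tpx2, Nusap1 and Ckap2, and of the kinetochore Bub1, Ttk, Ndc80, Nuf2, Cenpa and Cenpf. Cdca2, Prc1, Kif23, Ect2 and Anln were likewise not analysed here.

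**Figure D3:**
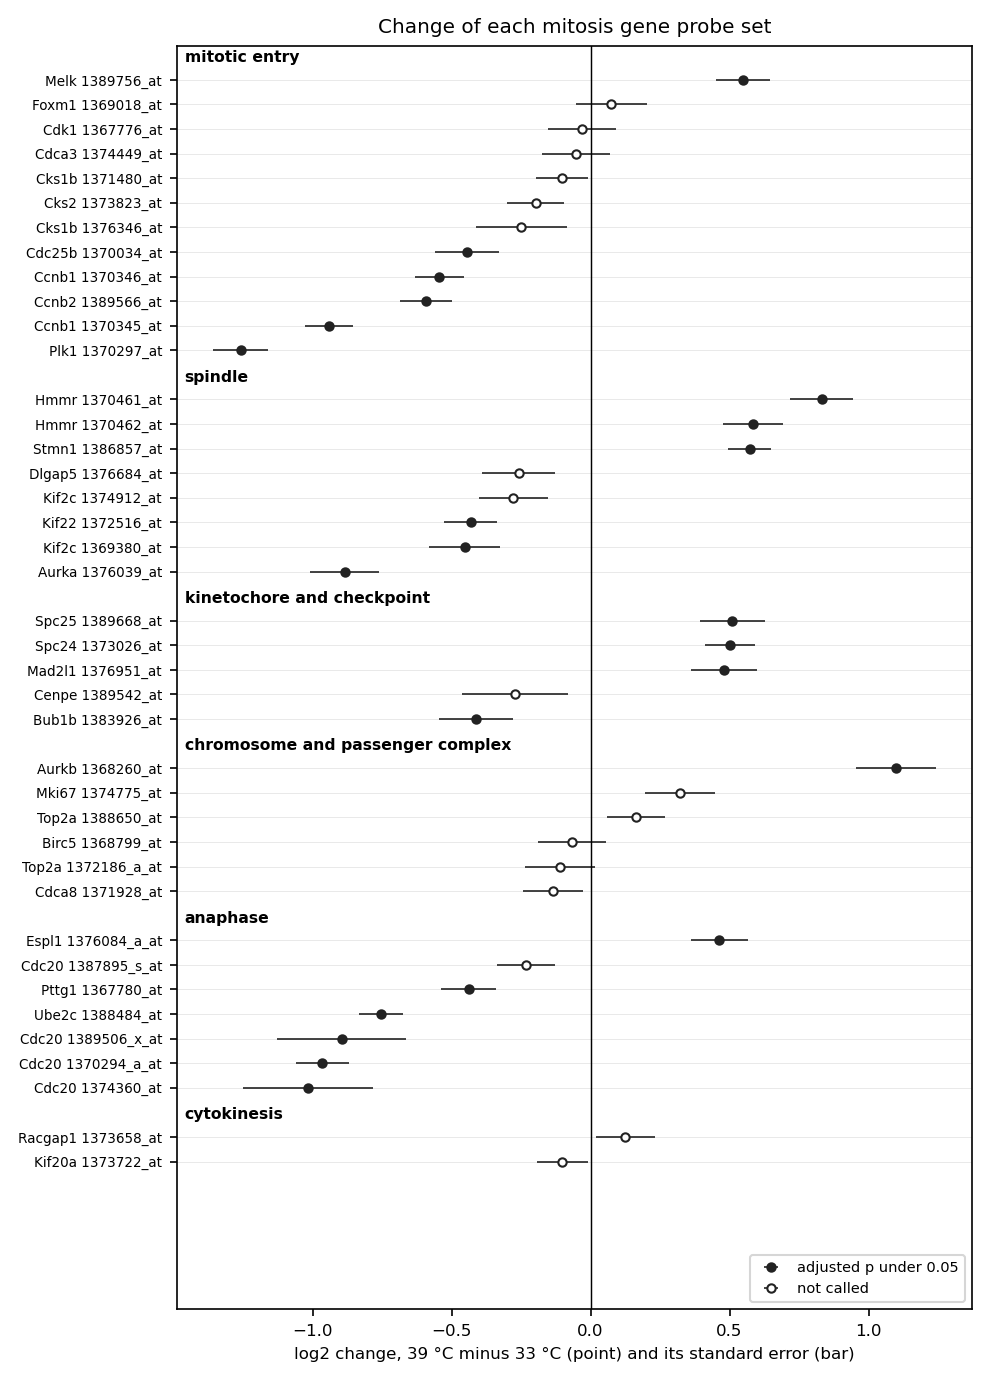
Log2 change at 39 °C minus 33 °C of the 40 tested member probe sets after quantile normalisation, by class, with bars for the standard error and filled points for an adjusted p under 0.05. The changes run from -1.26 for Plk1 to 1.10 for Aurkb, with 14 filled points below 0 and 9 above.

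Further genes of mitosis and of its transcriptional control, 139 in 6 lists, had 107 tested probe sets for 87 genes. Of these, 27 rose and 19 fell (43.0% called, against 47.2% of all probe sets), with a median change of 0.01. With spike-in scaling 6 rose and 51 fell (5.61% and 47.7%), near the 11.4% and 45.9% of all probe sets tested. Each spike-in count of the lists below is to be read beside these shares of all probe sets. Among other regulators of mitotic entry, 3 of 16 probe sets rose and 4 fell (43.8% called), against 1 and 7 with spike-in scaling. The inhibitory kinase Wee1 was higher, with a change of 0.99 ± 0.24 (SE), from under the limit for dim probe sets at 33 °C, and lost its call without nonpermissive replicate 2 (0.84). Nek6, a kinase of spindle assembly, was lower at -1.02 ± 0.13 (SE). In the anaphase-promoting complex and its conjugating enzymes, 7 of 19 rose and 5 fell (63.2% called), against 1 and 8 with spike-in scaling. They ran from the cullin subunit Anapc2 (0.98) to the scaffold Anapc1 (-1.33), whose second probe set was at 0.33 and not called.

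Of 13 condensin and cohesin probe sets, 4 rose and 0 fell (limma), or 30.8% called, below the 47.2% of all probe sets. With median centring 1 rose and 1 fell (15.4% called, against 50.8% of all), and with spike-in scaling 0 rose and 4 fell. Rad21, a cohesin subunit, rose by 0.57 ± 0.10 (SE) and lost its call with spike-in scaling (0.09). Of 26 further spindle and kinetochore probe sets, 3 rose and 7 fell (38.5% called), against 1 and 15 with spike-in scaling. The genes of 2 centromere proteins had the largest rise and fall. Cenpm read 693.4 and 526 at 33 °C and 1306.2 and 1201.7 at 39 °C, and Cenpw read 1039.1 and 1101.1 against 530.6 and 569.3. Of 19 further cytokinesis probe sets 8 rose and 0 fell (limma), or 42.1% called, against 47.2% of all. With median centring 5 rose and 4 fell (47.4% called, against 50.8% of all), and with spike-in scaling 1 rose and 8 fell. The Polo-like kinase gene Plk2, which was placed in this list, rose by 1.09 ± 0.10 (SE). Whether Plk2 acts in cytokinesis in these cells was not examined.

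Of 14 probe sets of the MuvB, retinoblastoma and NF-Y group, 2 rose and 3 fell (35.7% called, against 47.2% of all probe sets). Median centring gave 2 and 6, or 42.9% lower against 31.7% of all. Spike-in scaling gave 2 and 9, or 64.3% lower against 45.9% of all. Cdkn1a, the gene of p21, read 196.3 and 302.1 at 33 °C and 1772.8 and 1298.2 at 39 °C. It was 5.69-fold higher by this probe set, and its second probe set was at 0.43 and not called. On the deposited scale the second was called higher (0.53), but not with median centring (0.38) or spike-in scaling (0.15). Rb1, the retinoblastoma gene, rose by 1.97 ± 0.21 (SE) from under the limit for dim probe sets. Nfyc, a subunit of NF-Y, was lower by both its probe sets, at -1.29 ± 0.15 and -0.45 ± 0.12 (SE). The latter lost its call without permissive replicate 2 (-0.37) and without nonpermissive replicate 2 (-0.41).

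**Figure D4:**
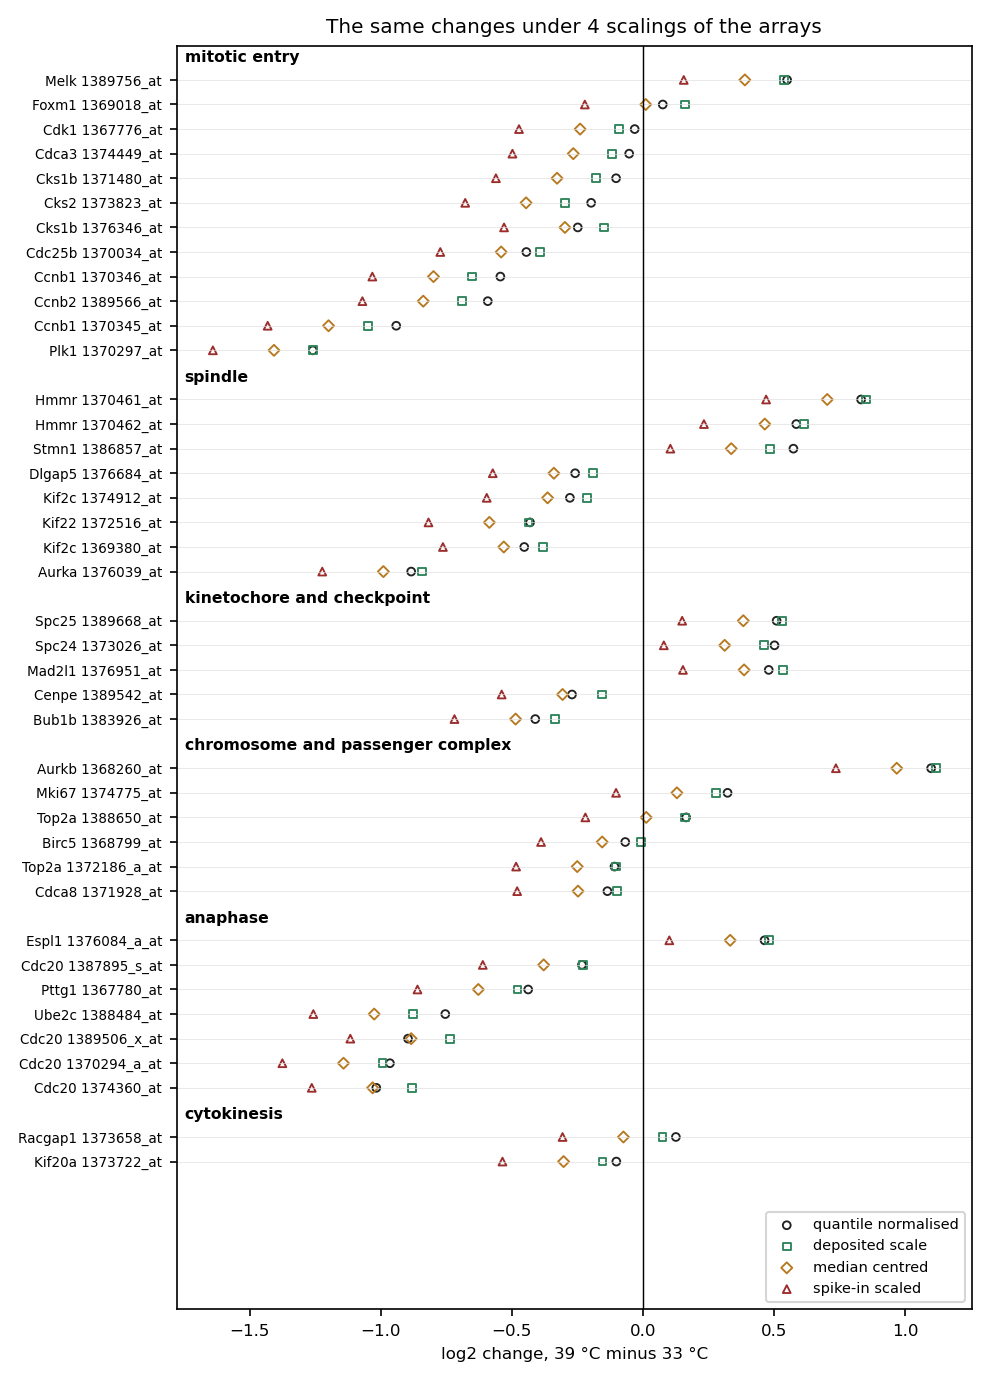
Log2 change at 39 °C minus 33 °C of the 40 tested member probe sets under 4 scalings of the arrays: quantile normalised, deposited, median centred and spike-in scaled. Spike-in scaling moves all points toward lower values, Plk1 to -1.64 and Aurkb to 0.74.

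The epithelial identity of the line was checked against marker genes. Of 9 airway epithelial markers, 8 lay above the limit for dim probe sets, among them Krt8, Krt14, Krt18, Cdh1 and Epcam, and Krt5 did not. Mean log2 levels over that list were 11.27 and 11.33 at 33 °C and 11.92 and 11.93 at 39 °C. The list moved both ways. Scgb1a1, the secretory club cell protein gene, read 38.7 and 58.3 at 33 °C, under the limit, and 646.8 and 534.7 at 39 °C, so that it passed through the 39 °C arrays alone. Its change of 3.15 was the largest of the list and weighs most in the rise of the list mean. Cldn4 (0.87), Krt19 (0.77), Epcam (0.53) and Krt8 (0.23) were called higher, Krt18 (-0.36) was called lower, and Krt14 and Cdh1 were not called. Krt8 was called on no other scale, and Epcam not with spike-in scaling. Krt14 was called lower with median centring (-0.28) and spike-in scaling (-0.51), and Cdh1 with spike-in scaling (-0.39). Of 6 fibroblast markers, Col3a1 alone lay above the limit. It rose from 6.16, under the limit, to 7.78, so that it too passed through the 39 °C arrays alone. The fibroblast list stood at 5.10 and 5.28 at 33 °C and 5.26 and 5.34 at 39 °C. Of 2 measured endothelial and 4 leukocyte markers, 0 lay above it. The part of these marker changes in the changes of the mitosis genes was not tested.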

How the data were processed

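RTEC11 RNA, 2 samples per temperature, was hybridised to an Affymetrix rat array as biotin-labelled cRNA made from total RNA, per the labels' protocols. The authors deposited linear intensities, 1 per probe set and array. From the values, each array had been scaled to a mean of 500 after trimming 2% at each end. No source used here names the summarising software. Depth is set by the number of arrays.

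Intensities were taken as log2(intensity + 16), 57 control probe sets were left out, and the arrays were quantile normalized because their medians differed by 0.175 (log2). Probe sets under the 40th percentile of mean level (log2 6.60, intensity 81.1) were described without a test. The other 9520 were fitted with limma 3.58.1 in R 4.3.3 (intensity trend, 2 residual degrees of freedom). Tests were two-sided, p-values were adjusted over all of them by Benjamini and Hochberg's method, and the threshold was 0.05. Names came from GEO's platform annotation, with 12754 Entrez identifiers matched to RefSeq (GRCr8) and 0 symbols changed. The procedure was tested on simulated data, with changes planted in a small part of the probe sets and no shift of whole arrays. That test does not bear on the choice of scaling. Replicates correlated at 0.979 and 0.980, and arrays of different temperatures at 0.950 to 0.953.

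Members, lists and alternatives were chosen with earlier results of these data known. Named were all members, with array values for the largest called rise and fall of each class and for genes with several tested probe sets of which 1 was called, and the extremes of each further list. The alternatives were 3 other scalings, 1 or 64 added in place of 16, no limit or the 60th percentile for dim probe sets, 1 or the mean probe set per gene, no probe sets ending in _x_at or _s_at, no intensity trend, a replicate block, and leaving out each array.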

Additional observations from a re-analysis of the deposited data

How the results depend on the processing

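With spike-in scaling the member counts moved to 2 higher and 28 lower, and the further mitosis lists to 6 higher and 51 lower. Under that scaling 45.9% of all probe sets tested were lower, against 70.0% of the members and 47.7% of the further lists. Median centring moved the further lists to 33 lower (30.8%, against 31.7% of all probe sets). No other alternative moved these counts by over 1.5 times. Fits without 1 array leave 1 array in a group, and the share of all probe sets called in them was not computed. The steadiness of member calls in those fits can thus not be set beside that of all probe sets. The range of member changes was 2.36, and 2.17 to 2.55 without 1 array. Of 23 called member probe sets, 17 kept their call without any single array. Values near 0 changed sign without a call, except Racgap1 with spike-in scaling. With that scaling Foxm1 was at -0.22, Mki67 at -0.10, Racgap1 at -0.31 and a Top2a probe set at -0.22, and with median centring Racgap1 was at -0.075. Without 1 array, Birc5 ran from -0.16 to 0.02, Cdca3 from -0.22 to 0.12, Cdk1 from -0.20 to 0.13, Foxm1 from -0.006 to 0.16 and the other Top2a probe set from -0.24 to 0.025. The cause was not tested, beyond the shift of whole arrays that the scalings apply.

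The replicate numbers were shared between the groups, but deviations of same-numbered arrays correlated at -0.006, so the numbers were not taken as pairs. With the replicate number as a block, 24 member probe sets were called, 10 higher and 14 lower, and 50 in the further lists. The share of all probe sets called with the block was not computed, so these counts are not a result about the members. Mki67 was then called higher, with the same change of 0.32. With 2 arrays per group, small changes could not be told from the spread.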
